A study of Saccharomyces cerevisiae with 30 samples.

Results

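The wide Orc5 sites are stretches of the budding yeast (Saccharomyces cerevisiae) genome at which a ChIP-seq list for Orc5, made without rapamycin, held a peak between 1 kb and 10 kb wide that lay more than 250 bp from every nuclear tRNA gene. They number 210 of the 1415 peaks in that list. A further 30 peaks of that width lay at tRNA genes, 976 peaks under 1 kb lay away from tRNA genes (narrow sites here), 196 narrow peaks lay at tRNA genes, and 3 peaks were over 10 kb. The width of the peaks in this list chose the sites, so their widths and positions are given as a description.

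Orc5 is a subunit of the origin recognition complex, the ATP-dependent machine that marks replication origins and loads the MCM helicase on them in G1. Yeast origins are short sequences, mostly between genes, and they differ in how early and how often they fire. INO80, a chromatin remodelling ATPase that slides and spaces nucleosomes, has been tied to fork progress and to transcription near origins. Arp5 is an actin-related subunit of its complex.

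Anchor-away strains were used: rapamycin ties an FRB-tagged protein to a partner that leaves the nucleus, which depletes it there. Break-seq, in which broken DNA ends are tagged in agarose plugs and sequenced, covered strains with the genotypes INO80-FRB Mot1-FRB (double depletion here), INO80-FRB, Mot1-FRB and WT-FRB (WT here). Mot1 removes the TATA-binding protein from DNA. Each strain was sampled with hydroxyurea (HU, 100 mM), an inhibitor of ribonucleotide reductase that slows forks, and without it, in 2 libraries per group. All 16 Break-seq libraries, WT included, had 3 h of rapamycin. ChIP-seq covered Orc5-FRB cells with rapamycin (8 µg/ml for 1 h) and without it, 1 library each, and Arp5-FRB cells with rapamycin and without it, 2 libraries each. Per the labels, ChIP-seq cells saw nocodazole and were then arrested in G1 (alpha factor, 5 µg/ml, 1 h), while Break-seq cells were in log phase. The ChIP-seq antibodies were against V5 and Arp5, per the labels. No site was matched to an annotated origin, since the gene table used here names none. The labels do not state separate cultures for replicates, so p-values measure a spread between libraries that may be technical.

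The wide sites ran between 1006 and 7044 bp, with a median of 1846 bp and quartiles of 1313 and 2826 bp. Together they covered 457.7 kb, or 3.79% of the nuclear genome. Every chromosome held at least 10. Chromosome IV had the most, 29, while the small chromosomes were the densest: 4.34 sites per 100 kb on I, 4.07 on VI and 3.47 on III, against 0.928 on XII and 1.01 on VII. Much of the sequence near or beyond 1 Mb on VII and XII lay in the 3 peaks over 10 kb (chrVII:999036-1027896, chrVII:1034050-1077024 and chrXII:1000000-1065444), which were left out. The median gap between neighbours was 44170.5 bp, and 12 gaps were of up to 1 kb, so that the 210 sites formed 198 separate loci. A narrow site lay within 1 kb of 115 of them.

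The 5 widest sites lay mostly across several genes. The widest was chrVIII:4810-11854 (sacCer3, as are all positions here), 7044 bp across COS8, of a subtelomeric membrane protein family, and ARN2, a siderophore transporter. Next came chrIX:338017-344221, 6204 bp over FAA3, URM1, NAS2 and YIA6, and chrIV:1445224-1451246, 6022 bp over ITR1, SEC20, LCD1 and RPL37B. LCD1 encodes the partner of the checkpoint kinase Mec1, and ITR1 the main inositol transporter. The others were chrXIV:735526-741143, 5617 bp at BIO3, MNT4 and FRE4, and chrI:38739-44197, 5458 bp at CNE1, GPB2, PEX22 and ACS1. At none of these 5 did any of the 16 Break-seq lists hold a peak.

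At the lower bound of the width, the members were chrXIII:286473-287479 (1006 bp, between ANY1 and HXT2), chrV:93477-94494 (1017 bp, between SPF1 and ECM10) and chrV:406467-407485 (1018 bp, between YCK3 and DSE1). Just outside were chrIV:1489331-1490316 (985 bp), chrIII:267521-268497 (976 bp, inside FIG2) and chrV:84530-85506 (976 bp, between ANP1 and UTR5). All 6 of these sites had a peak in the Orc5 list with rapamycin, and 1 of each 3 had a break peak in 1 list.

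Wide sites reached into genes. The centre of 81 (38.6%, 95% exact binomial interval 32.0 to 45.5%) lay inside a gene, against 24.4% of narrow sites and 73.5% of positions taken every 100 bp along the genome. Centres of 56 lay between tandem genes (26.7%, against 39.4% of narrow sites and 13.2% of positions) and 44 between divergent genes (21.0%, against 28.9% and 9.02%). Gaps between convergent genes, where no promoter lies, held 25 (11.9%, against 6.35% and 3.98%). Of the 210 sites, 28 overlapped no gene, 49 overlapped 1, 94 overlapped 2 and 39 overlapped 3 or more. A median of 46.2% of a site's bases lay in genes. A longer interval touches more genes by its length, so these counts of genes describe width as well as place.

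**Figure D1:**
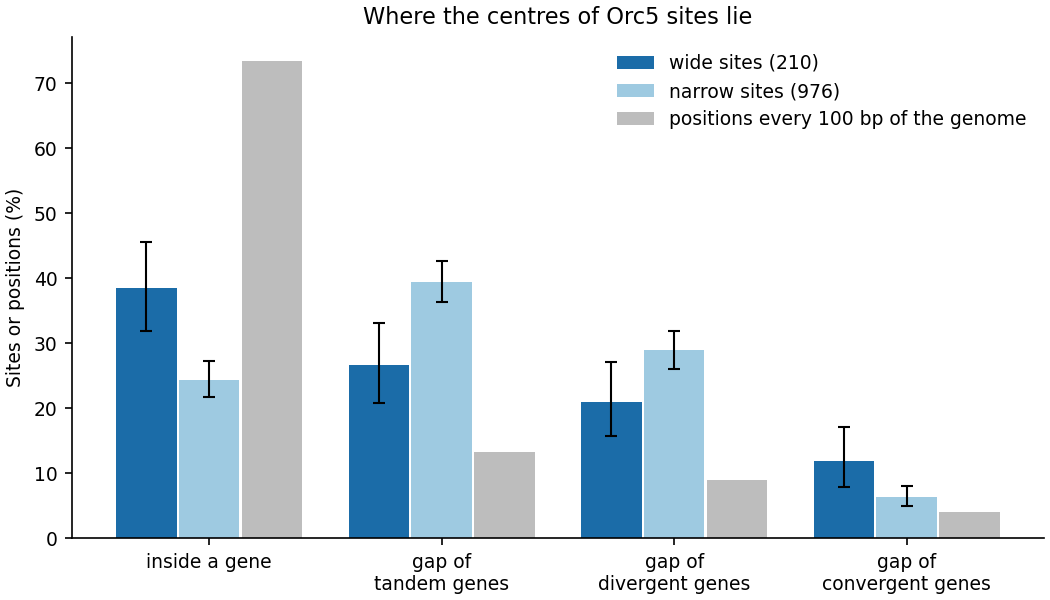
Share of wide Orc5 sites (210), of narrow Orc5 sites (976) and of positions taken every 100 bp along the genome (y axis, %) whose centre or position lies inside a gene or in a gap between tandem, divergent or convergent genes; bars on sites are 95% exact binomial intervals, which cover counting error only. Wide sites sit inside genes more often than narrow sites (38.6% against 24.4%) and less often than positions of the genome (73.5%).

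Chromosome ends were well represented. Within 10 kb of an end lay 25 wide sites (11.9%, interval 7.85 to 17.1%), against 4.30% of narrow sites, and they fell on 18 of the 32 ends. Within 30 kb lay 50 (23.8%), against 13.4% of narrow sites. The site chrXII:459600-460749 lay in the ribosomal DNA, in the spacer between RDN5-1, a 5S rRNA gene, and RDN37-2, a copy of the large rRNA precursor. These 26 sites, at ends or ribosomal DNA, are given apart from the other 184 below, because reads in repeats can map to several copies. None of the wide sites overlapped an unnamed reading frame of the length found in Ty retrotransposons, the mobile elements of this genome.

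Wide sites overlapped 346 of 6002 protein-coding genes (5.76%) and 360 of 6431 nuclear genes of all kinds (5.6%). Of 26 genes for replication initiation, among them ORC1 to ORC6 and MCM2 to MCM7, 0 lay at a wide site, and 0 at any Orc5 site of up to 10 kb. Cytosolic ribosomal protein genes numbered 6 of 137 (4.38%): RPS6B, RPL12B, RPL27B, RPL37B, RPS0B and RPL9B. Of 10 histone genes there were 2, HTB1 (histone H2B) and HHF1 (histone H4), the second beside a known origin. Of 19 glycolysis genes TDH1, a glyceraldehyde-3-phosphate dehydrogenase, was at a wide site, and of 17 hexose transporters HXT5 was. COS6 and COS8 were so among 12 COS genes, and SNR13, SNR37, SNR40 and SNR36 among 76 snoRNA genes (5.26%). The 24 seripauperin genes, the 8 Y′ helicase genes and the 4 genes of the silent mating loci had none. TRP1, the tryptophan synthesis gene next to ARS1, the first origin cloned from yeast, overlapped the wide site chrIV:461378-464181, which also reached GAL3, a galactose sensor. Most of these lists hold few genes, so their shares near 5.76% carry little weight.

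In the list with rapamycin, which removes Orc5-FRB from the nucleus, most wide sites still held a peak. The list with rapamycin held 1968 peaks, of which 168 were between 1 and 10 kb, against 240 without rapamycin. Its peaks over 10 kb (chrVII:999834-1077033, chrXII:1000000-1063712 and chrXV:1013216-1071590) were counted, here and below, wherever they overlapped a wide site. The list had a peak at 175 of 210 wide sites (83.3%, interval 77.6 to 88.1%). Over all 1412 Orc5 sites of up to 10 kb the share was 72.8%, over narrow sites 64.9% (633 of 976), and the 30 wide sites at tRNA genes kept a peak at all 30. The share went with length. It was 74.8% for wide sites of 1 to 2 kb, 94.5% for those of 2 kb or more and 67.1% for narrow sites of at least 500 bp. With 1 library on each side, this difference has no replicate check and no test.

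What was left covered 201 kb, 44.0% of the bases of the wide sites, against 53.8% of the bases of narrow sites. The median share of a site covered was 33.5%, 77 sites (36.7%) were covered over at least 50% of their length and 17 over their whole length. At the 175 sites that kept a peak, the widest peak with rapamycin had a median of 869 bp, against a median width of 1983 bp without rapamycin. At 26 sites it was at least as wide as without rapamycin. The sites were chosen for a wide peak in the list without rapamycin, so a shorter peak in a second list follows from that choice and is not a measure of rapamycin. Of the 148 peaks of 1 to 10 kb away from tRNA genes in the list with rapamycin, 137 met a peak without rapamycin, and there the medians were 1347 bp with rapamycin and 1404 bp without it. At narrow sites that kept a peak, chosen for being short without rapamycin, the medians were 412 bp with rapamycin and 195 bp without it. Of the 210, 62 sites held 2 or more peaks with rapamycin (29.5%, against 0.820% of narrow sites). All 272 peaks with rapamycin at wide sites had their midpoints at a median of 0.364 of the way between a site's centre and its edge. The centre itself was covered at 99 sites.

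**Figure D2:**
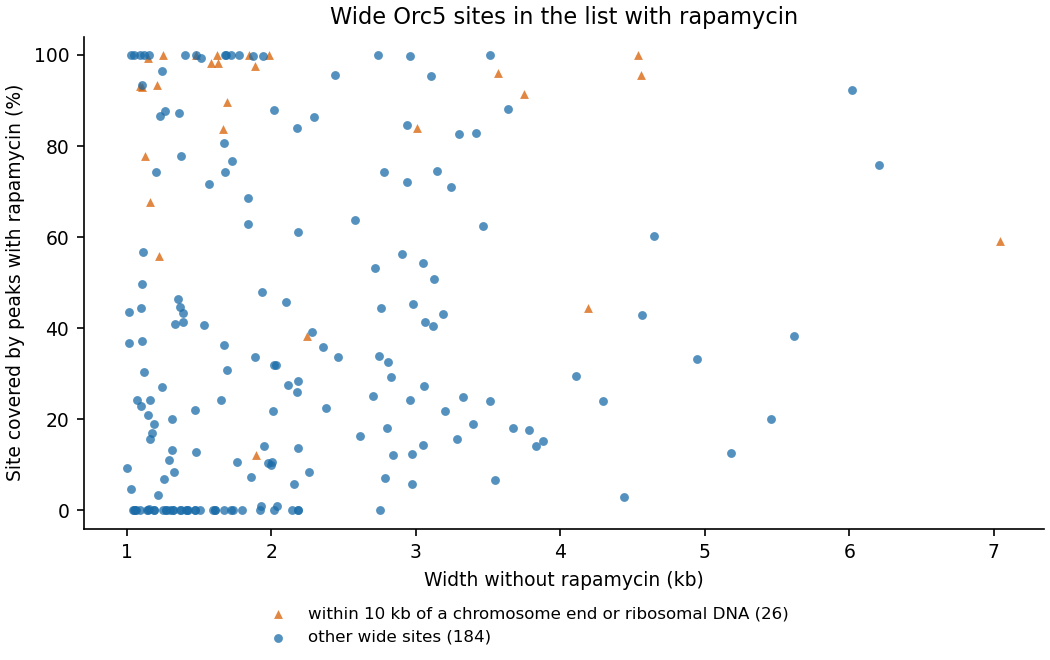
Share of each wide Orc5 site covered by peaks of the Orc5 list with rapamycin (y axis, %) against its width without rapamycin (x axis, kb); each point is 1 site, triangles for the 26 sites within 10 kb of a chromosome end or in ribosomal DNA and circles for the other 184. The 35 sites without any peak lie at 0 and are at most 2753 bp wide, and 23 of the 26 triangles lie at 50% or above.

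Sites at chromosome ends kept their peaks more fully. All 26 sites at ends or ribosomal DNA had a peak with rapamycin, 23 of them over at least 50% of their length, and the median share covered was 93.2%. Of the other 184 sites 149 had one (81.0%, interval 74.6 to 86.4%), 54 of them over at least 50% of their length (29.3%), with a median of 36.8% covered at the 149. The part of mapping at repeats in this was not tested. The 35 sites that lost their peak had a median width of 1415 bp. The widest of them were at HES1 (2753 bp, chrXV:781614-784367, an oxysterol-binding protein gene), at DIP5 and KEL3 (2189 bp, chrXVI:42466-44655, DIP5 being an amino acid permease), at PPX1 and SMN1 (2188 bp, chrVIII:500999-503187, PPX1 being an exopolyphosphatase), at RPS0B (2146 bp, chrXII:243328-245474) and at VMA8 and RML2 (2021 bp, chrV:58973-60994). These 5 were picked as the widest lost sites after their values were seen.

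Among the named sites the share still covered with rapamycin ranged widely. The site at COS8 and ARN2 was covered over 59.2% of its length in 5 pieces, that at FAA3 over 75.8%, that at LCD1 over 92.3%, that at MNT4 over 38.3% in 5 pieces, and that at GPB2 over 20.2%. The TRP1 site was covered over 18.2% in 3 pieces. At the histone genes, 22.9% was covered at HHF1 and 32.0% at HTB1. At TDH1 it was 72.0%, at HXT5 56.4% and at RPL27B 18.0%.

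Counting Arp5 peaks of any width, nearly all wide sites had one where the Arp5 lists cover the chromosome at all. The lists hold no peak on chromosomes IV, IX and XII, where 51 wide sites lie, and on V and XVI (24 sites) only the second rapamycin library has peaks. On the 11 chromosomes with peaks in every list lay 135 wide sites. Of these 135 and 135 had an Arp5 peak in the rapamycin libraries (80.2% and 85.9% of all Orc5 sites there did), against 133 and 134 in the libraries without rapamycin (79% and 74.7% of all sites). A peak in all 4 lists was found at 133 of 135 (98.5%), against 66.6% of all Orc5 sites on those chromosomes and 90.4% of narrow sites of 500 bp or more. The 2 exceptions were at NNF2 on chromosome VII, with peaks in 3 lists, and between ANY1 and HXT2 on chromosome XIII, with peaks in the 2 rapamycin lists. These shares rest in part on very wide Arp5 peaks. The lists held 21 and 28 nuclear peaks over 10 kb with rapamycin, against 24 and 31 without. Counting only Arp5 peaks of up to 10 kb, a mean of 61.9% of all 210 wide sites had one with rapamycin and 50.5% without. With peaks of any width these means were 70.0% and 63.6%.

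The Arp5 peaks were dense over those chromosomes as a whole. Peaks covered 52.5% and 53.5% of the 11 chromosomes in the rapamycin libraries, against 54.1% and 53.9% without rapamycin, and windows of 1 kb held a peak in 92.4% and 89.5% of cases, against 89.6% and 90.0%. Wide sites were covered over a mean of 60.1% and 71.1% of their length with rapamycin, against 64.9% and 63.2% without, and their 1-kb centres held a peak in 97.0% and 98.5% of cases, against 95.6% and 95.6%. Both were above the values of the chromosomes in all 4 lists, a difference that was not tested. A window of 1 kb at the centre of every site gave wide and narrow sites the same length. Narrow sites are shorter than this window, with a median of 189 bp, so their windows also took in flanks. In this window 96.7% of wide sites and 96.7% of narrow sites on the 11 chromosomes had a peak (mean of 4 libraries, difference -0.0656 percentage points, exact sign-flip permutation p = 0.875 over 4 libraries, two-sided, smallest possible 0.125). Over all chromosomes the means were 64.9% for wide and 66.8% for narrow sites, with narrow sites higher in all 4 libraries (difference -1.95 percentage points, exact p = 0.125, the smallest that 4 libraries allow). Over the whole site in place of its centre, wide sites were higher by 14.6 percentage points.

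**Figure D3:**
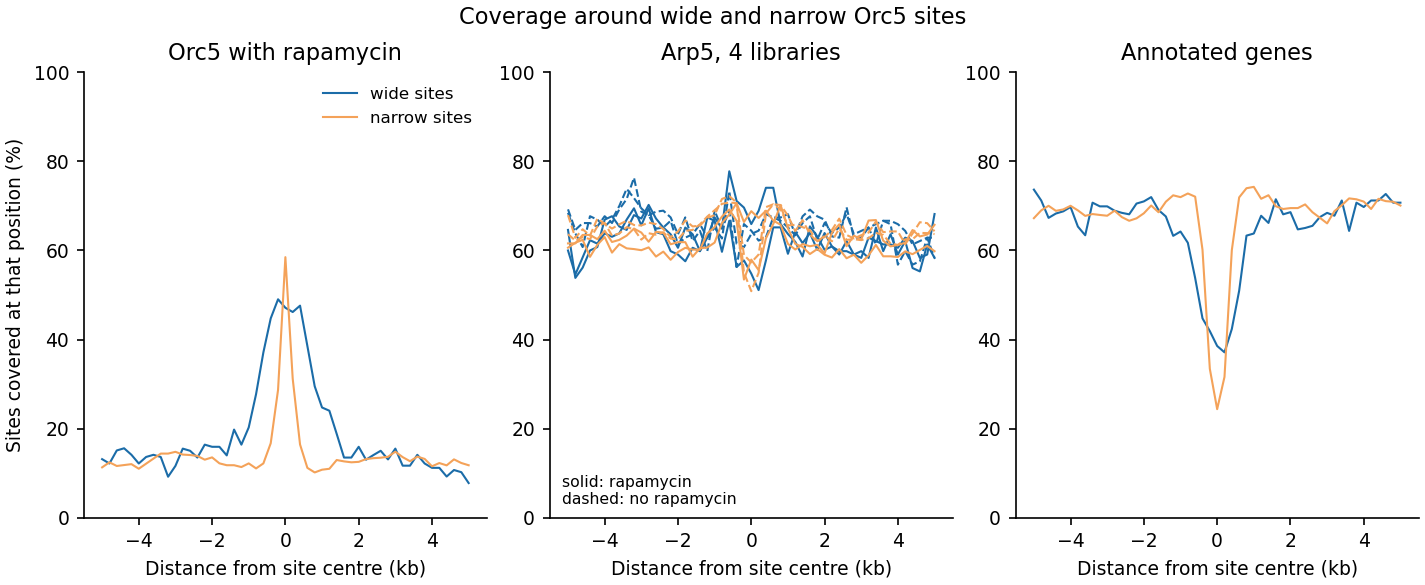
Share of wide and narrow Orc5 sites (y axis, %) covered at each distance from the site centre (x axis, kb) by Orc5 peaks with rapamycin, by Arp5 peaks in 4 libraries on the 11 chromosomes with Arp5 peaks in every list, and by annotated genes; lines are blue for wide and orange for narrow sites, and dashed for Arp5 without rapamycin. Orc5 with rapamycin stands out over the centre, and genes dip there. At narrow sites Arp5 dips at the centre in all but the second rapamycin library. The second library without rapamycin goes from 70.8% at -600 bp to 50.9% at the centre and 70.4% at 600 bp. The second rapamycin library has 68.1%, 68.8% and 66.7% at these positions. At wide sites the first rapamycin library has 66.7%, 54.8% and 65.2%, and the second without rapamycin 68.9%, 64.4% and 67.4%.

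Within wide sites Arp5 covered gene bases more fully than the bases between genes. Gene bases of wide sites were covered over 71.3% and 72.7% in the rapamycin libraries, against 70.8% and 71.5% in the libraries without rapamycin. Bases between genes were covered over 52.4% and 71.2% with rapamycin, against 63.2% and 59.6% without. Over all gene positions of the 11 chromosomes the cover was 55.4% and 52.7% with rapamycin, against 57.0% and 58.0% without, below that of the gene bases of wide sites in all 4 lists. These positions were not matched to the chromosomes of the sites. Gene bases of narrow sites were covered over 75.1% and 82.1% with rapamycin, against 76.0% and 73.9% without, above those of wide sites in all 4 lists. Their bases between genes had 52.5% and 65.0% with rapamycin, against 56.2% and 48.4% without. At wide sites the second rapamycin library differs from the other 3 in having nearly as much between genes as in them. Over all positions of the 11 chromosomes it also had 57.0% between genes, against 42.4% in the first rapamycin library, and 45.1% and 42.3% in those without rapamycin.

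The height of the highest Arp5 peak at a wide site, given as the authors' enrichment of ChIP reads over scaled control, had a median of 3.24 and 3.53 in the rapamycin libraries, against 3.51 and 3.50 without rapamycin. All nuclear Arp5 peaks had medians of 4.28 and 5.24 with rapamycin, against 4.33 and 4.34 without. Enrichment goes with the chromosome, so medians over all chromosomes mix different scales: the median peak of a chromosome ranged between 1.40 and 18.3 and between 1.5 and 11.4 in the rapamycin libraries, against 1.51 to 19.3 and 1.58 to 22.2 without rapamycin, lowest on XI or VI and highest on X in each list. Set against the median peak of its own chromosome, the highest peak at a wide site had a median ratio of 1.06 and 1.05 with rapamycin, against 1.05 and 1.04 without. The highest of the peaks at a site is set here against single peaks, which raises the ratio where a site holds several. The median of the wide sites lay below that of their chromosome's peaks on 2 and 1 of the 11 chromosomes, against 1 and 2 without rapamycin. The 17 sites at chromosome ends on those chromosomes had medians of 4.77 and 4.01, against 4.26 and 4.01 without rapamycin. The other sites had 3.21 and 3.40, against 3.48 and 3.44. As ratios to the chromosome's median peak, sites at ends had 1.97 and 1.29, against 1.26 and 1.48 without rapamycin, and the other sites 1.05 and 1.05, against 1.04 and 1.04. Over all chromosomes a mean of 70.0% of wide sites had an Arp5 peak with rapamycin and 63.6% without, a difference of 6.43 percentage points, which was 1.11 on the 11 chromosomes (exact permutation p = 0.333 for both, the smallest that 2 against 2 libraries allow). The 24 sites on V and XVI all had a peak in the second rapamycin library and in no other. Enrichment is the authors' value per list and was not tested between groups.

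The 4 sites with the highest Arp5 enrichment, by the lowest of the 4 lists, lay on VIII and X, and the 3 on X share the high scale of that chromosome, where wide sites had medians of 19.0 and 12.4 with rapamycin, against 21.1 and 24.6 without. At chrVIII:553451-557023, over IMD2 (an IMP dehydrogenase that responds to low GTP) and PHO12 (an acid phosphatase) near the right end of VIII, enrichment was 88.1 and 26.4 with rapamycin, against 176 and 29.5 without. The libraries of each pair differed by more than the groups there. At chrX:454928-455981, between TDH2 (glyceraldehyde-3-phosphate dehydrogenase) and MET3 (ATP sulfurylase), it was 31.6 and 15.1 with rapamycin, against 29.3 and 35.7 without. At chrX:612241-613553, in JJJ3, it was 25.1 and 14.1, against 22.4 and 26.4 without rapamycin. At chrX:440569-445749, across SAG1 (alpha-agglutinin) and MPP10 (of the small-subunit processome), it was 20.0 and 13.9, against 20.6 and 24.4 without. In these last 3 the second rapamycin library had the lowest value and the first lay within or near the range without rapamycin. The site at TDH1 followed with 24.0 and 13.3, against 21.7 and 24.2 without rapamycin. The HHF1 site, on II, had 3.25 and 2.96, against 2.87 and 2.91, and the PES4 site had 1.59 and 1.55, against 1.60 and 1.62, on VI, where all peaks had medians of 1.5 and 1.5, against 1.59 and 1.58. As a ratio to the median peak of the chromosome, the IMD2 and PHO12 site stayed the highest by its lowest list, with 16.6 and 4.10 with rapamycin, against 31.1 and 4.78 without.

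DNA breaks at wide sites were few and were concentrated in WT cells. Over the 16 Break-seq lists, 41 of the 210 wide sites had a break peak in at least 1 list (19.5%, interval 14.4 to 25.5%), against 9.07% of all Orc5 sites of up to 10 kb and 6.86% of narrow sites. Among them were 28 of the 184 sites outside ends and ribosomal DNA (15.2%) and 13 of the 26 others. Most were seen once: 22 of the 41 sites had a peak in 1 list, 10 of these in the first WT library and 9 in the first WT library with HU. An overlap of 1 bp counted, so longer sites take in more peaks by their length. In windows of 1 kb at the centres, given below, the mean shares per list were 0.952% of wide and 1.39% of narrow sites. A break peak occurred at 7 wide sites (3.33%) in any list depleted of INO80 and at 38 (18.1%) in any list with INO80, while over all Orc5 sites of up to 10 kb the shares were 1.91% and 8.36%. Outside ends and ribosomal DNA these numbers were 2 (1.09%) and 27 (14.7%) of the wide sites, and 1.27% and 7.6% of all Orc5 sites. Sites at Ty-length frames were also left out there. Fewer sites with a break peak in lists depleted of INO80 were thus seen over all Orc5 sites too, and whether wide sites differ from the others in this was not tested.

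The lists differ in length, which every count depends on. Nuclear peaks numbered 169 to 319 in the INO80 and double-depletion libraries, 5 to 40 in the Mot1 libraries, and 286 to 446 in WT libraries. Read totals are unknown, so a short list and a shallow library cannot be told apart.

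With HU, the double-depleted libraries had a break peak at 2 and 1 wide sites (0.496% and 0.354% of all Orc5 sites of up to 10 kb did) and INO80 libraries at 1 and 2 (0.708% and 0.708%). Mot1 libraries with HU had one at 6 and 1 (0.567% and 0.0708%), and WT libraries with HU at 19 and 7 (3.26% and 1.63%). Without HU the numbers were 2 and 4 in the double depletion (0.637% and 1.2% of all Orc5 sites), 3 and 2 in INO80 (0.567% and 0.425%), 9 and 2 in Mot1 (0.779% and 0.283%), and 15 and 4 in WT (5.03% and 1.42%). Replicate 1 exceeded replicate 2 in both WT groups and in both Mot1 groups. Outside ends and ribosomal DNA, the WT libraries with HU had 17 and 6 sites, against 10 and 0 without HU, while each of the 12 other libraries had 1 or 0.

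**Figure D4:**
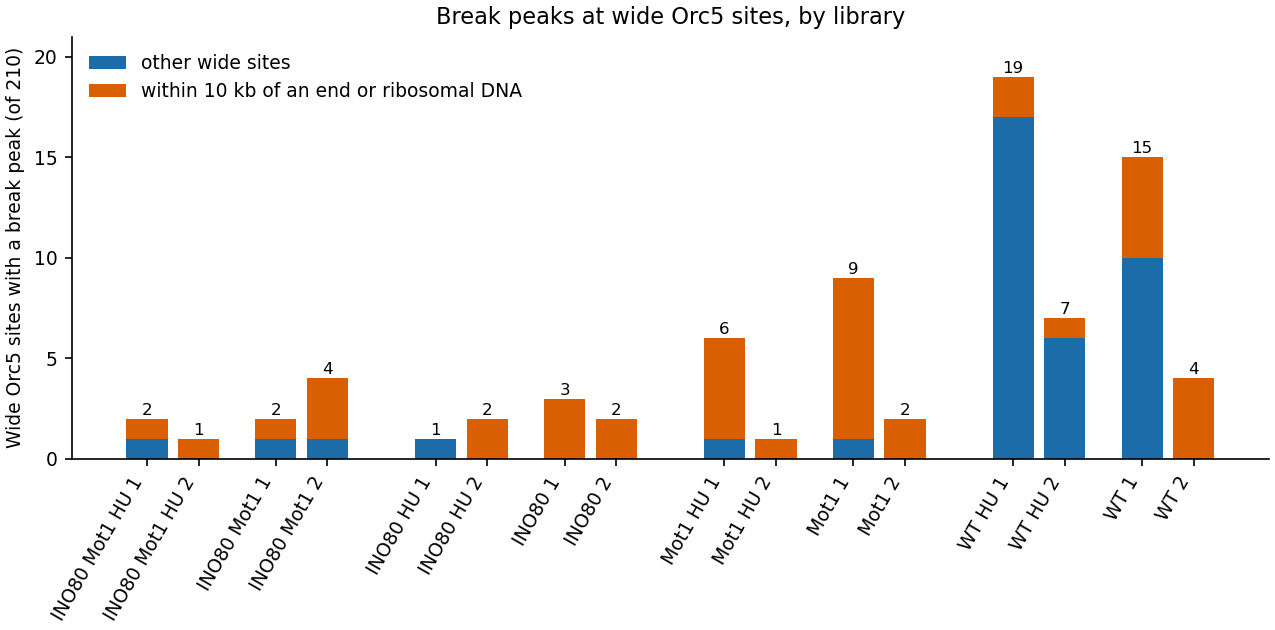
Number of wide Orc5 sites (of 210, y axis) with at least 1 break peak in each of 16 Break-seq libraries (x axis), with HU left of no HU in each strain and depleted strains left of WT; blue marks sites outside chromosome ends and ribosomal DNA and orange marks sites within 10 kb of an end or in ribosomal DNA. The 4 WT libraries reach 19, 7, 15 and 4 sites, and no other library has more than 1 site in blue.

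Depletion of INO80 went with a smaller share of the break peaks at wide sites. The share of nuclear break peaks that overlapped a wide site averaged 0.777 ± 0.304% in the 8 libraries depleted of INO80 and 12.1 ± 9.57% in the 8 libraries with INO80 (SD), and was lower with depletion in 4 of 4 pairings of Mot1 status and HU. The difference was -11.3 percentage points (exact permutation within strata, two-sided p = 0.00154, the smallest that 1296 arrangements allow, adjusted p = 0.00926 over 6 tests). Its size rests on the short Mot1 lists: without lists of fewer than 50 peaks the difference was -3.13 percentage points (exact p = 0.0556, the smallest then possible), and the call was lost. The call was also lost without ends, ribosomal DNA and Ty-length frames (-7.86 percentage points, exact permutation adjusted p = 0.0833). Of nuclear peaks, 8 of 310 and 6 of 276 in INO80 lay at any Orc5 site of up to 10 kb without HU. In WT without HU 72 of 446 and 19 of 346 did. With HU the counts were 11 of 311 and 11 of 319 in INO80, against 60 of 341 and 25 of 286 in WT. The double depletion had 7 of 212 and 5 of 169 with HU, and 9 of 283 and 17 of 300 without. Whether wide sites differ in this from all Orc5 sites was not tested. The number of wide sites with a break peak averaged 2.13 ± 0.991 in libraries depleted of INO80 and 7.88 ± 6.29 in those with INO80, lower in 4 of 4 pairings, a difference of -5.75 sites that did not pass the threshold of 0.05 after adjustment (exact permutation p = 0.0262, adjusted p = 0.0525). It passed without the second WT library (-7.13 sites), without the second Mot1 library (-6.63), or without the second Mot1 library with HU (-6.38).

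The share in the Mot1-depleted libraries was larger but rested on few peaks. The libraries depleted of Mot1 averaged 10.7 ± 10.9% and those with Mot1 2.23 ± 2.46%, higher in 4 of 4 pairings of INO80 status and HU (difference 8.44 percentage points, exact permutation p = 0.00926, adjusted p = 0.0278, n = 8 each). The 4 single-depletion lists of 24, 5, 40 and 14 nuclear peaks gave shares of 25.0%, 20.0%, 22.5% and 14.3%, with an exact binomial interval of 0.505 to 71.6% on the shortest. Peaks at any Orc5 site of up to 10 kb numbered 8, 1, 11 and 4 in these lists. The permutation treats short and long lists as equally variable. Most of their peaks at wide sites lay at chromosome ends or ribosomal DNA. Lists of fewer than 50 peaks include all 4 Mot1 libraries, so without such lists only the double depletion was set against INO80. The difference was then 0.234 percentage points, and the arrangements left cannot give an exact permutation p under 0.05. Without ends, ribosomal DNA and Ty-length frames the difference was 0.938 and the call was lost. Without the second double-depleted library, the difference was 8.37 (exact permutation adjusted p = 0.0525). On the number of sites, Mot1 depletion gave -3.25 sites (3.38 ± 2.83 in depleted libraries and 6.63 ± 6.74 in the others, adjusted p = 0.33 by the same exact permutation test), which did not pass.

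No effect of HU on either measure passed the test. The share averaged 7.24 ± 9.81% with HU and 5.66 ± 8.21% without it (difference 1.58 percentage points, n = 8 each, exact permutation p = 0.275, adjusted p = 0.33, higher with HU in 2 of 4 strains). The number of sites averaged 4.88 ± 6.17 with HU and 5.13 ± 4.61 without HU (difference -0.25, exact permutation adjusted p = 0.941, n = 8 each). In WT alone, outside ends, ribosomal DNA and Ty-length frames, the share was 17.9% and 12.3% with HU, against 4.93% and 0% without it. The libraries of the 2 groups thus did not overlap (15.1 ± 3.98% with HU and 2.46 ± 3.48% without HU, n = 2 each). An exact permutation test of 2 libraries against 2 cannot give a p under 0.333. In the INO80 and double-depleted strains the libraries with and without HU overlapped on this measure.

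A window of 1 kb at each site's centre gives wide and narrow sites the same length, but at narrow sites it takes in flanks. Over the 16 lists, a difference between wide and narrow sites in this window did not pass the test. A break peak was there at 0.952% of wide and 1.39% of narrow sites on average, a difference of -0.437 percentage points (exact sign-flip permutation p = 0.269, two-sided, wide higher in 6 of 16 libraries). In the WT libraries with HU the shares were 5.24% and 2.38% at wide sites, against 2.77% and 1.64% at narrow sites. In the WT libraries without HU they were 2.38% and 0.476% at wide sites, against 6.76% and 1.95% at narrow sites. The WT libraries with HU thus had wide above narrow in both, and those without HU had narrow above wide in both. Wide was also above narrow in all 4 Mot1 libraries, with HU and without it, by 0.0664 to 0.645 percentage points, and narrow above wide in all 8 libraries depleted of INO80, so the order did not go with HU in the other strains.

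Break peaks in WT cells with HU lay nearer to the centres. Outside ends and ribosomal DNA, the WT libraries with HU had 31 peaks at wide sites, with folds over the local background between 1.80 and 2.83 and a median of 2.12, at a median of 431.5 bp from the site centre. Those without HU had 10 peaks, all from the first library, with folds between 1.65 and 2.21 and a median of 1.81, at a median of 1062 bp. All nuclear peaks of the lists had median folds of 2.38 and 2.41 with HU, against 1.88 and 2.01 without HU, so the median at wide sites was below that of all peaks in both groups. This difference in position rests on 10 peaks of 1 library without HU and was not tested.

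The wide sites that HU gained in WT were 6, defined by peaks in each of the 2 HU libraries and none in the 2 without HU, while 1.2% of all 1412 Orc5 sites of up to 10 kb were called so. They lay at FUS1, HBN1, FRM2 and AGP1 (chrIII:72642-76111), at DAL4, DAL2, DCG1 and DAL7 (chrIX:410269-413399), at ROG3 and PES4 (chrVI:198684-201793), at YBL086C and BOI1 (chrII:62184-64361), at CRF1 and HTB1 (chrIV:913127-915145) and beside BRP1 (chrVII:484045-485616). FUS1 serves cell fusion in mating, AGP1 is an amino acid permease, the DAL genes break down allantoin, BOI1 acts in cell polarity and CRF1 represses ribosomal protein genes. None of the 6 had a peak in any of the other 14 lists.

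Folds at these sites are given as a description, since the sites were chosen for a peak in both HU libraries of WT. All peaks of these libraries at wide sites outside ends and ribosomal DNA had folds between 1.80 and 2.83. The highest folds in WT HU 1 and WT HU 2 were 2.19 and 2.60 at FUS1, 2.06 and 2.31 at DAL2, 2.38 and 2.29 at PES4, 2.10 and 2.07 at BOI1, 2.67 and 2.23 at HTB1, and 2.02 and 1.99 beside BRP1. At 3 of the 6 the peaks of both libraries overlapped each other. At PES4 they spanned chrVI:199522-199983 and chrVI:199678-199935, and at HTB1 chrIV:913455-913983 and chrIV:913611-913958. At BOI1, DAL2 and BRP1 they lay at different places within the site. Only 2 of the 6 sites had a peak at or above the median score of its list, so the calls rest mostly on low peaks.

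The other comparisons share the WT libraries with that one, so they are given side by side. With HU, INO80-depleted libraries gained 0 wide sites against WT with HU (0% of all Orc5 sites), and lost 6 (1.06%), which are the 6 above. The double depletion gained 0 with HU (0%) and lost 6 (1.27%), and Mot1 depletion gained 1 (0.0708%) and lost 7 (1.56%). Without HU, INO80 depletion gained 0 (0%) and lost 1 (0.708%), the site at the right end of IX by YIR043C. Double depletion gained 1 (0.0708%) and lost 2 (0.496%), and Mot1 depletion gained 1 (0.0708%) and lost 2 (0.992%). Losses against WT with HU contain the 6 sites by construction, since these have peaks in both WT HU libraries and in no depleted library. HU lost 2 wide sites in WT (0.708%), the one at YIR043C and the one at COS4 on VI. HU gained and lost 0 wide sites in INO80-depleted cells (0.0708% and 0% of all Orc5 sites), in Mot1-depleted cells (0% and 0%) and in the double depletion (0% and 0.0708%).

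The site gained by the double depletion was the one at TRP1. Its break peaks had folds of 2.17 in the first double-depleted library with HU, and 2.82 and 2.06 in the double-depleted libraries without HU. The second library with HU had none, nor had any INO80, Mot1 or WT library. The peaks lay at chrIV:462232-462459 with HU, and at chrIV:462184-462352 and chrIV:461856-462153 without HU, at -434 to -775 bp from the site's centre, to its left. None of them reached the median score of its list.

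The site gained by Mot1 depletion was the ribosomal spacer at RDN5-1. It had peaks in all 4 Mot1 libraries, with folds of 4.24 and 3.40 with HU, and 5.02 and 3.95 without HU, and in no other list. Their peaks were 449 to 637 bp wide and 78 to 125 bp from the site's centre. Reads there cannot be assigned to one copy of the repeat.

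Of the sites at chromosome ends, 4 had break peaks in more than 1 strain. The site at YEL073C and RMD6 (chrV:6177-10373) had peaks in 11 lists, all at its left edge, as at chrV:6012-6287 in the first WT library, and 0 lists had a peak whose midpoint lay in the site. Folds there were 3.84 and 3.26 in the double depletion with HU, 3.05 and 3.30 without HU, 3.11 in the second INO80 library with HU, 3.37 and 3.00 in INO80 without HU, 4.34 and 3.54 in WT with HU, and 3.45 and 3.34 in WT without HU. The Mot1 libraries had none. The site at COS4 (chrVI:4532-6424) had peaks in 8 lists, also at its left edge. It had a fold of 8.99 in the first Mot1 library with HU, and 15.3 and 6.04 in the Mot1 libraries without HU. In INO80 it had 2.88 with HU, and 2.75 and 2.65 without HU, and in WT 2.84 and 2.42 without HU and none with HU. Folds in the Mot1 lists are high for all their peaks, with medians of 5.69 and 5.14 with HU, and 6.05 and 5.75 without.

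**Figure D5:**
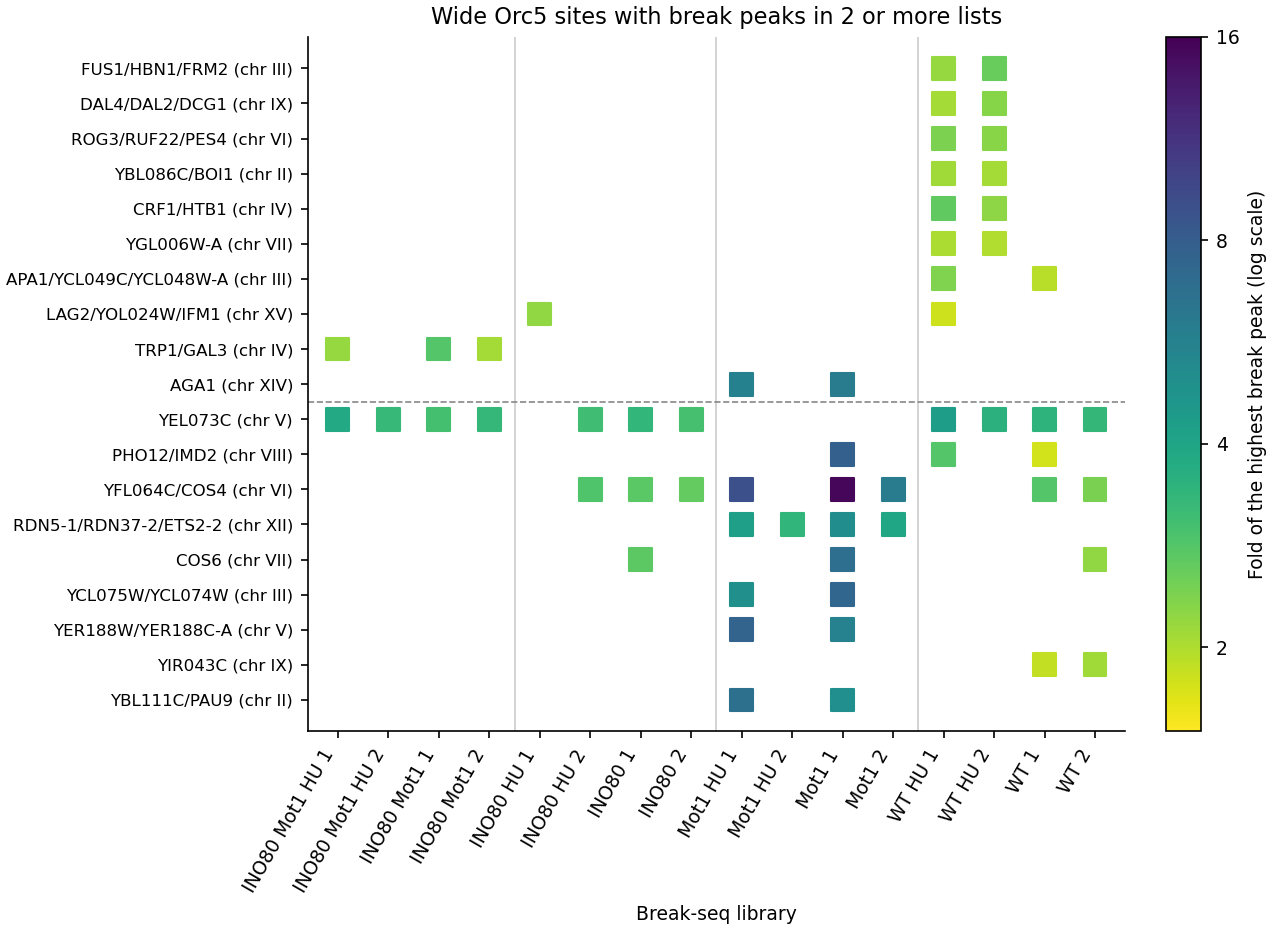
Highest fold of the break peaks at each wide Orc5 site with peaks in 2 or more of the 16 Break-seq lists (19 sites, rows named by up to 3 overlapping genes, or flanking ones where none overlaps) in each library (columns); colour gives the fold on a log scale and blank means no peak. Sites above the dashed line lie outside chromosome ends and ribosomal DNA, where 6 sites share only the 2 WT libraries with HU, and below it the sites at YEL073C, PHO12 and IMD2, COS4, and COS6 have peaks in 2 or more strains.

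Of the others at chromosome ends, COS6 on VII (chrVII:1080727-1084474) had peaks in 3 lists, with folds of 2.73 in the first INO80 library, 6.89 in the first Mot1 library and 2.23 in the second WT library, all without HU. The IMD2 and PHO12 site had 2.82 in the first WT library with HU, and 7.84 in the first Mot1 library and 1.77 in the first WT library without HU. The left end of III, over YCL075W and YCL074W (chrIII:217-4777), had 4.94 in the first Mot1 library with HU and 7.30 in the first without HU. Away from ends, the site at APA1 (chrIII:38567-41809) had 2.37 in the first WT library with HU and 1.93 in the first without HU. The HHF1 site had 2 peaks, with folds of 2.15 and 1.96, in the first WT library with HU and none in any other library.

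The overlap of breaks with Orc5 that stayed was counted as a description. Outside ends and ribosomal DNA, 26 of the 28 sites with a break peak kept one (92.9%), against 123 of the 156 without (78.8%). Their median widths were 2161.5 bp with and 1769.5 bp without a break peak, and the median share covered with rapamycin was 32.7% with and 25.6% without one. Longer sites held both more often. With ends and ribosomal DNA included, a break peak occurred in 22 of 91 wide sites of 2 kb or more and in 19 of 119 of 1 to 2 kb. The difference was not tested. On the 11 chromosomes with Arp5 peaks in every list, Arp5 was present in all 4 lists at 19 of the 19 sites that lost Orc5 and at 114 of the 116 that kept it.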

How the data were processed

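Per the file headers and values, the authors deposited 1 peak list per library. Alignment was with Bowtie2 to sacCer3, per the submitters' processing notes, and which peak callers were run is not given in the sources used here. The deposited Break-seq lists give each peak a score, a fold over background, plus its p-value and q-value, each as −log10. Per the file headers, the deposited Arp5 lists give ChIP reads, a scaled control signal, their ratio (enrichment) and a q-value. Orc5 peaks were deposited as positions alone. All these values describe peaks within a list. Of 30 samples, 22 were used, and the 8 of NET-seq were not. Depth per library is unknown, so exact 95% binomial intervals cover counting error over sites or peaks only.

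Break peak starts were moved to 1-based positions, while the convention of the Orc5 and Arp5 positions is not stated and they are printed as deposited. A peak was at a site if it overlapped by at least 1 bp. Genes came from the RefSeq table of assembly R64 (6477 genes, the same build as sacCer3), with strand read from systematic names. Chromosome ends were taken as the last base in the gene table or any list. The ChIP-seq protocol speaks of depletion of Orc2, so the protein is named by the genotype here. Members, gene lists and tests were chosen with earlier results of these data known. Sites were named if they had break peaks in the most lists (10), were gained or lost in a comparison (up to 6), were the 5 widest or nearest the width limit, had the highest Arp5 enrichment (4), or held a gene of a list (up to 4).

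The effects of HU, INO80 and Mot1 were tested over 16 libraries by exact permutation within strata of the other factors, with Benjamini-Hochberg adjustment over 6 tests and a threshold of 0.05. Wide and narrow sites were compared within libraries by exact sign-flip permutation. The tests over Break-seq libraries were checked on simulated counts and shares. With no planted effect they called 2 to 8.5% of 200 simulated sets. The highest value was that of Mot1 depletion on the share, so its p may be somewhat small. Alternatives covered the overlap, the score, repeats (40 Ty-length frames, ribosomal DNA, the last 10 kb), width, tRNA distance, short lists (under 50 peaks) and each library left out. Python 3.11.15, numpy 2.4.6, scipy 1.17.1 and matplotlib 3.10.9 were used.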

Additional observations from a re-analysis of the deposited data

Results flagged for a closer look

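The percentage of Orc5-site break peaks that lay at wide sites moved opposite ways with HU in INO80-depleted and in WT cells. In INO80-depleted libraries it was 9.09% and 18.2% with HU, against 37.5% and 33.3% without HU, and in WT libraries 43.3% and 32.0% with HU, against 22.2% and 21.1% without HU. The HU effect in WT minus that in INO80-depleted cells was 37.8 percentage points (exact permutation of strain labels within HU status, two-sided p = 0.0556, the smallest that 36 arrangements allow, so the threshold could not be passed). The measure was chosen after the data were seen, and 5 such differences were computed, the other 4 with p between 0.333 and 0.667. The INO80-depleted lists hold 11 and 11 peaks at Orc5 sites with HU, against 8 and 6 without HU, so 1 to 3 peaks at wide sites set each of their shares, while the WT lists hold 60 and 25 with HU, against 72 and 19 without HU. No group had 4 or more libraries, so single libraries were not screened for standing apart.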

How the results depend on the processing

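INO80 depletion on the share of break peaks kept its direction in every alternative but missed the threshold with peaks at or above the median score (-9.48 percentage points), without repeats and ends (-7.86), with sites of 2 kb or more (-3.02), without short lists (-3.13) and with both of these left out (-8.36, added after seeing the data); leaving out 1 library gave -12.4 to -10.3. Mot1 depletion on the share missed it with sites extended by 500 bp (11.4), with the median score (8.01), without repeats (0.938), from 2 kb (1.24), without short lists (0.234), without both (1.43) and with a replicate block (8.44, adjusted p = 0.0938 by exact permutation); leaving out 1 library gave 7.42 to 9.47, and without the second double-depleted library the adjusted p was 0.0525 (exact permutation). The block changed no other call. Without short lists all Mot1 libraries dropped out, which left INO80 against WT and the double depletion against INO80. In those settings neither depletion test could reach the threshold. Replicate numbers were not taken to pair the libraries, since not every correlation was over 0.1: same-numbered libraries of 2 groups correlated between -0.194 and 0.569 in their differences over sites. HU on the share reversed with the median score (-0.689; leave-one-out 0.554 to 2.61). On the number of sites, HU reversed by midpoint (0.25), without repeats (1.63), from 2 kb (0.25), without short lists (0.333) and without both (2.17), with -1.75 to 1.25 on leaving out 1 library. INO80 depletion on the number passed by midpoint (-5.5), with -7.25 to -4.25 on leaving out 1 library, where 3 of 16 fits passed. Mot1 depletion on the number passed with extended sites (-8.25) and reversed without short lists (0.25) and without both (0.5), with -4.75 to -1.75 on leaving out 1. Wide minus narrow for breaks was 1.47 over whole sites (exact permutation p = 9.16e-05) and -0.573 with the stronger peaks (p = 0.00061), with -0.631 to -0.174 on leaving out 1. For Arp5 it was 14.6 over whole sites, 4.07 against narrow sites of at least 500 bp, and 5.83 with both on the 11 chromosomes, with -2.46 to -0.993 on leaving out 1. The rapamycin difference for Arp5 was 11.4 with Arp5 peaks of up to 10 kb and 0.714 to 12.1 on leaving out 1. Sites kept with rapamycin were 36.7% at 50% cover and 94.5% from 2 kb. The site at YEL073C had peaks in 0 lists by midpoint, that at COS4 in 5, and that at IMD2 in 8 when extended by 500 bp. The cause of these changes was not tested. Peak lists without read totals, 2 libraries per group and Mot1 lists of 5 to 40 peaks limit what can be told apart.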
